A study of Homo sapiens with 6 samples.

Results

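The integrin subunits described here were ITGB3, ITGA5, ITGAV, ITGB1, ITGA2, ITGA3, ITGA4, ITGA6, ITGB5 and ITGB8, in A375 cells with and without silencing of FAH, the last enzyme of tyrosine breakdown. The 10 genes were named as a list with results of these same arrays known, and each gene's probe set was selected on its measured signal, as the one with the highest mean over the 6 arrays. Each of the 10 had 1 probe set carrying its symbol alone, so that step decided nothing. They are 10 of the 26 subunits of the family and of the 18372 genes tested. A375 is an established human melanoma line with a mutant BRAF kinase. Cultures received either a negative control siRNA (3 arrays) or siFAH, an siRNA against FAH (3 arrays), and RNA was taken from both groups at 72 h. The labels do not say which of the study's siRNAs against FAH was used, and untransfected cells were not analysed here. The study's methods call the replicates biological.

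Integrins are receptors of the cell surface that pair an alpha with a beta subunit and hold cells to the matrix. The outer parts of a pair bind matrix proteins such as fibronectin, vitronectin, laminins and collagens, while the short tail of the beta subunit binds talin, kindlin and other linkers that reach the actin cytoskeleton and kinases such as FAK. ITGB3 joins ITGAV in the vitronectin receptor, which is known in melanoma for its appearance as tumours pass from radial to vertical growth, and ITGA5 joins ITGB1 in the main fibronectin receptor.

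FAH itself checked the labels. Its RMA signal, a log2 value summarised over the probes of 1 probe set, was 5.48, 5.59 and 5.68 with control siRNA and 4.92, 4.60 and 4.92 with siFAH. The siFAH arrays lay below all control arrays, with a fold change of -0.77 on the log2 scale (SE 0.10, adjusted p = 0.00213 by limma), or 58.7% of the control signal. Over all genes, limma at an adjusted p under 0.05 called 6.38% lower and 3.48% higher after siFAH. Over all probe sets, each array correlated best with an array of its own group. Of the 8 melanocyte lineage genes tested, SOX10 (8.30 to 8.59), S100B (7.16 to 7.47) and MITF were bright in all arrays, whereas the pigment genes PMEL, MLANA, TYR and TYRP1 were dim, at a percentile of mean signal over all genes of 20.1 or lower. None of the 8 was called by limma, with 1 lower and 1 higher at an unadjusted p under 0.05 and 1 lower by SAM. The leukocyte marker PTPRC was dim (2.19 to 2.64), and no platelet, endothelial, epithelial or fibroblast marker was called by limma or by SAM, with 1 epithelial marker, KRT14, higher at an unadjusted p under 0.05. CD68, a lysosomal protein of macrophages and other cells, was higher by 0.49 (adjusted p = 0.00263 by limma). With it, the summed linear signal of the 5 leukocyte markers was 274 to 294 in control and 374 to 383 in siFAH arrays, and its part in the integrin values was not tested.

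After FAH silencing, 5 of the 10 subunits were lower and none was higher. ITGB3 had the lowest fold change among the 25 integrin subunits tested, followed by ITGB8, ITGA5, ITGA2 and ITGA6. The other 5 (ITGA3, ITGAV, ITGB5, ITGA4 and ITGB1) were not called, and their groups of arrays overlapped. The median fold change of the 10 was -0.24 on the log2 scale, beside 0.01 over all genes. The share called lower over all genes was 6.38%, but the 10 subunits were brighter than most genes (percentiles 75.8 to 96.7 of mean signal), and among the 4440 genes at least as bright as the dimmest of them 15.2% were called lower, with a median of -0.09. The arrays of the 2 groups did not overlap, with siFAH lower, for the same 5 subunits and for 18.6% of all genes. Since the list was written with this contrast known, these counts are a description of the 10 genes and nothing is read from them about integrins as a group. No subunit of the 10 was called higher by SAM either, or at an unadjusted p under 0.05. In cultures of 1 line, less RNA per cell and fewer cells that carry a transcript cannot be told apart.

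ITGB3, the beta subunit of the vitronectin receptor (chr17:47253827-47313743, GRCh38.p14), had signals of 8.94, 8.90 and 9.17 in control arrays and of 8.11, 8.18 and 7.94 in siFAH arrays. Every siFAH array was below every control array, and the gap between the groups was wider than the range within either. The fold change was -0.93 (95% interval -1.13 to -0.73, adjusted p = 0.000742 by limma), which left 52.6% of the control signal.

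ITGAV, its alpha partner (chr2:186590056-186680901), behaved otherwise. The control arrays read 7.55, 7.68 and 7.82 and the siFAH arrays 7.67, 7.61 and 7.48. The groups overlapped, with the lowest control array between siFAH arrays. The fold change of -0.10 had an interval from -0.29 to 0.09 (adjusted p = 0.512 by limma), so a fall of the size seen in ITGB3 lay outside it. ITGAV pairs with several beta subunits, of which ITGB1, ITGB5 and ITGB8 are also in the list.

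ITGB8, which with ITGAV forms a receptor that binds latent TGF-beta, read 8.12, 8.10 and 8.29 in control arrays and 7.74, 7.75 and 7.52 in siFAH arrays. The groups did not overlap, and the siFAH signal was 70.8% of control (log2 fold change -0.50, SE 0.09, adjusted p = 0.00787 by limma). ITGB5, the vitronectin-binding beta subunit found in many adherent cells, read 7.76, 7.77 and 7.86 against 7.73, 7.78 and 7.66. These groups overlapped, and the fold change of -0.08 (interval -0.23 to 0.07) did not pass the test. Among the beta subunits that pair with ITGAV in the list, ITGB3 and ITGB8 were therefore called lower. ITGB5 and ITGB1 (described below) were not called, and neither was ITGAV itself. Only the difference between ITGB3 and ITGAV was itself tested.

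**Figure D1:**
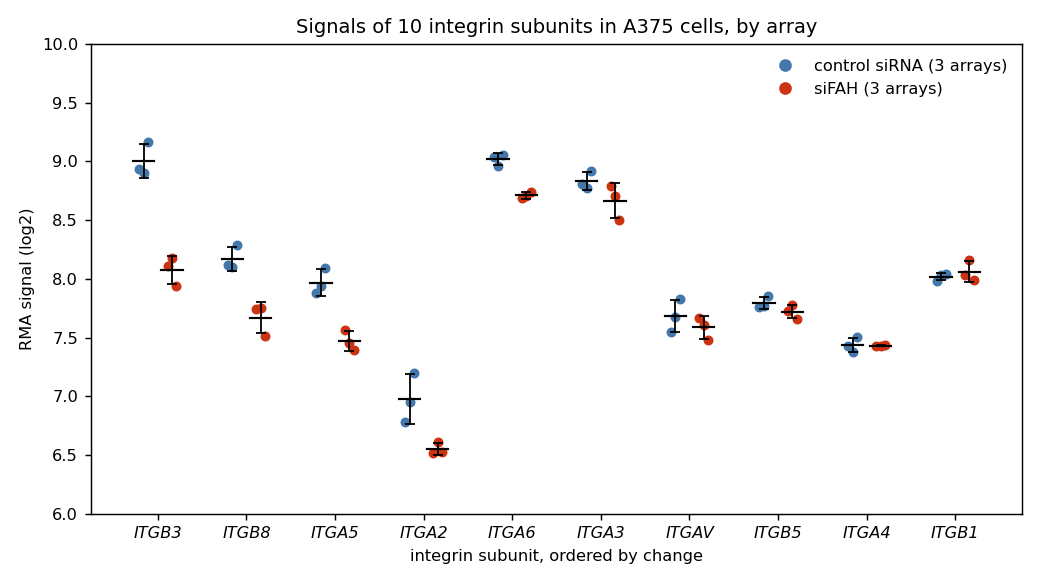
RMA signal (log2, vertical axis) of the 10 integrin subunits in 3 control siRNA arrays and 3 siFAH arrays. Points are arrays, long bars are group means and short bars 1 SD, and heights are to be compared within a gene only. The siFAH points of ITGB3, ITGB8, ITGA5, ITGA2 and ITGA6 lie below all their control points, and the other 5 overlap.

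ITGA5, the alpha subunit of the fibronectin receptor (chr12:54395261-54419266), read 7.88, 7.94 and 8.09 in control arrays and 7.57, 7.45 and 7.40 in siFAH arrays. All siFAH arrays were below all control arrays. Its fold change was -0.50 (interval -0.67 to -0.32, adjusted p = 0.0056 by limma), or 70.9% of the control signal.

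ITGB1, the beta subunit that ITGA5 shares with many other alpha subunits (chr10:32900318-32958230), read 7.98, 8.03 and 8.04 in control and 8.03, 8.16 and 7.99 in siFAH arrays. The groups overlapped, and siFAH replicate 2 was above all control arrays. The fold change was 0.04 (interval -0.11 to 0.20, adjusted p = 0.739 by limma), and a fall as large as that of ITGA5 lay outside this interval.

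The remaining members are alpha subunits that pair with ITGB1, and ITGA6 also pairs with ITGB4. ITGA2, of the collagen receptor, read 6.78, 6.95 and 7.20 in control and 6.52, 6.61 and 6.52 in siFAH arrays. The siFAH arrays were all lower, although the control arrays were spread over a wider range than for any other member (SD 0.21). Its fold change was -0.43 (SE 0.10, adjusted p = 0.0255 by limma), and the call was lost without any 1 array except control replicate 1: adjusted p was 0.0702 without control replicate 2, 0.0628 without control replicate 3, 0.0581 without siFAH replicate 1, 0.0588 without siFAH replicate 2 and 0.0852 without siFAH replicate 3. ITGA6, of the laminin receptors, read 9.04, 8.96 and 9.06 in control and 8.69, 8.71 and 8.74 in siFAH arrays. The arrays within each group lay close together and the groups did not overlap. The fold change was -0.31 (SE 0.07, adjusted p = 0.0181 by limma), and this call was lost without control replicate 3 (0.0537), siFAH replicate 2 (0.0646) or siFAH replicate 3 (0.0513), and under cyclic loess scaling (-0.22, adjusted p = 0.0553).

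ITGA3, another laminin-binding subunit, read 8.81, 8.77 and 8.92 in control and 8.79, 8.71 and 8.50 in siFAH arrays. The siFAH replicates 2 and 3 lay below all control arrays and replicate 1 lay among them, and the fold change of -0.17 (interval -0.36 to 0.02) did not pass the test (adjusted p = 0.24 by limma). ITGA4, which binds VCAM1 and fibronectin, read 7.43, 7.38 and 7.50 in control and 7.43 in each of the siFAH arrays. The siFAH values fell in the middle of the control values, with a fold change of -0.0064 (interval -0.15 to 0.14). Of these alpha partners of ITGB1, ITGA5, ITGA2 and ITGA6 were thus called lower, and ITGA3 and ITGA4 were not, with no test of the difference.

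The same control array was the highest of its group, and the same siFAH array the lowest of its group, for most of the subunits. The order of the other arrays differed between subunits. Control replicate 3 was the highest control array for all 10 genes, whereas it was so for 62.2% of the 4440 genes at least as bright and for 40.1% of all genes. In the siFAH group, replicate 3 was the lowest array for 7 of the 10 (ITGA2, ITGA4 and ITGA6 were the exceptions), beside 50.1% of the bright genes. These same arrays had the lowest and the highest median over all probe sets, 4.92 in control replicate 3 and 5.04 in siFAH replicate 3. The part of this difference between arrays in the integrin values was not tested. Without control replicate 3, siFAH replicate 2 or siFAH replicate 3, 3 of the 10 subunits were called lower. ITGB3, ITGA5 and ITGB8 were called with each of the 6 arrays left out, at adjusted p values of up to 0.00461, 0.0286 and 0.0335 by limma.

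Setting partners against each other within an array removes what both share, such as the level of that array. The difference has no meaning as a level, since it joins separate probe sets, but its change between groups does. ITGB3 minus ITGAV was 1.39, 1.23 and 1.34 in control arrays and 0.44, 0.57 and 0.46 in siFAH arrays. The groups were far apart, at 1.32 ± 0.08 and 0.49 ± 0.07 (SD, n = 3 each), a change of -0.83 with an exact two-sided permutation p of 0.1. ITGA5 minus ITGB1 was -0.10, -0.10 and 0.06 in control and -0.47, -0.71 and -0.59 in siFAH arrays. Again no siFAH array reached the control range, and the means of -0.05 ± 0.09 and -0.59 ± 0.12 (SD, n = 3 each) differed by -0.54 with an exact permutation p of 0.1. With 3 arrays against 3, a p of 0.1 is the smallest this test can give, so neither of the 2 comparisons could pass 0.05, and the adjusted value is 0.1 for both. The partners were compared because ITGB3 and ITGA5 were known to be lower in these arrays, so the direction of both changes is a description.

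**Figure D2:**
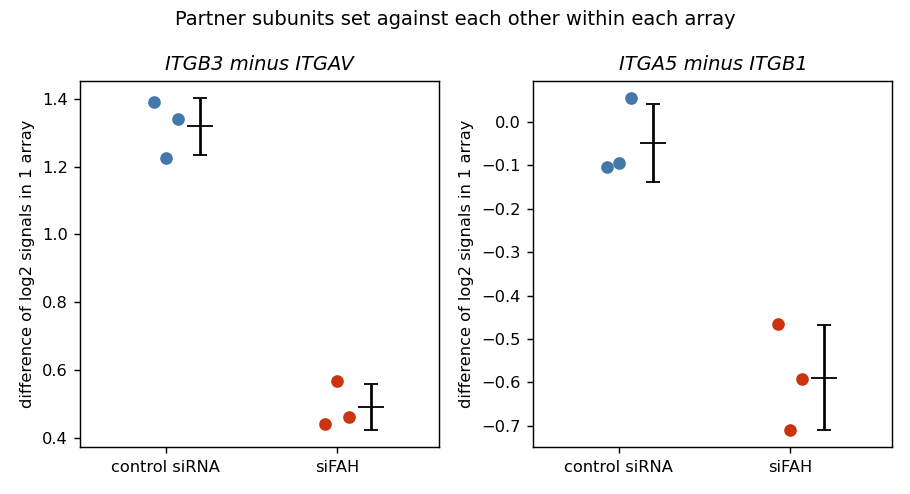
Difference between partner subunits in the log2 signal of each array (vertical axis) for ITGB3 minus ITGAV and ITGA5 minus ITGB1, in control siRNA and siFAH arrays. Points are the 3 arrays of a group and bars give the mean and 1 SD. Both differences are lower in all siFAH arrays than in any control array, by 0.83 and 0.54 between the means.

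The promoters printed here are those of the 4 called subunits with a window, picked because they were called lower, and that of ITGB1. Those of ITGAV, ITGA4 and ITGB5, which were not called, are described by their matches only. RefSeq windows (GRCh38.p14, from 250 bases before to 50 after a gene's start) were matched for 8 of the 10 members, all but ITGB3 and ITGA3. There were 2 windows each for ITGAV, ITGB1 and ITGA6, and 3 for ITGB5. Only the window with the most upstream start was used for each gene, here and for the shares over all windows. Further windows of a gene were not searched. Those used were searched on both strands for 6 motifs. The AP-1 motif, bound by Fos and Jun proteins, was spelled TGANTCA. The GC box, bound by Sp proteins, was spelled GGGCGG. The composite site of C/EBP and ATF proteins was spelled TGATGNAA and the cyclic AMP response element, CRE, TGACGTCA. The TATA box, which places the start of transcription, was spelled TATAAA. The site of ETS family factors was spelled CCGGAAG, and matches of different motifs were allowed to overlap. The sequences below run 5′ to 3′ on the gene's own strand from 250 bases before the start to its first base, with matches to the AP-1, GC box and TATA motifs of either strand in capitals. They lie at chr12:54419266-54419516 (minus strand) for ITGA5, chr7:20330650-20330900 (plus strand) for ITGB8, chr5:52989102-52989352 (plus strand) for ITGA2, chr2:172427086-172427336 (plus strand) for ITGA6 and chr10:32958230-32958480 (minus strand) for ITGB1, the uncalled partner of ITGA5. For ITGB8 the listed start lies inside the annotated span of the gene.
ITGA5: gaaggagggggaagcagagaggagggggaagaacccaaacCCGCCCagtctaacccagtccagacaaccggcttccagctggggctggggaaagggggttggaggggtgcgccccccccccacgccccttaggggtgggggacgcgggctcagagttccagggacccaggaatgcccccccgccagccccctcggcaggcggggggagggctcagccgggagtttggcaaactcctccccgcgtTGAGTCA
ITGB8: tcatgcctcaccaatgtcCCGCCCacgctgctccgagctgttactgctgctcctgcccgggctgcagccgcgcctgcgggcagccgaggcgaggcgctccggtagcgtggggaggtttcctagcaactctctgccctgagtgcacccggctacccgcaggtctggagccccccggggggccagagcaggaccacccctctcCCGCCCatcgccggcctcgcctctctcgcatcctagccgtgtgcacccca
ITGA2: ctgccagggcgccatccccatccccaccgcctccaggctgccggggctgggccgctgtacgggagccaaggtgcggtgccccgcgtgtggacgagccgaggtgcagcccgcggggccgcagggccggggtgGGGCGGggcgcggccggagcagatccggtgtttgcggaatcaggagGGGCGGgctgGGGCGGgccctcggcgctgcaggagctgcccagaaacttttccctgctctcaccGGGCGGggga
ITGA6: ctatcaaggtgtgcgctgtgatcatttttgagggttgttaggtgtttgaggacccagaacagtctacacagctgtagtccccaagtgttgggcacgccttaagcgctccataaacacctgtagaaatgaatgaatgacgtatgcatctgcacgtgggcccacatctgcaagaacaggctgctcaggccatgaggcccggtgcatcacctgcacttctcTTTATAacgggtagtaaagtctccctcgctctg
ITGB1: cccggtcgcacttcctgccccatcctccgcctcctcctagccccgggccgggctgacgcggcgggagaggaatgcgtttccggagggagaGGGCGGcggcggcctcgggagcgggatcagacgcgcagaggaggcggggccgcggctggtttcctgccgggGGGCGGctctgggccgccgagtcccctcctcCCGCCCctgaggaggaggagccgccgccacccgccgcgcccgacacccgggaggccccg

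ITGA5 held an AP-1 match that ended on the first transcribed base, from -6 to 1 (counted from the start as 1, with no position 0), and AP-1 matches stood in 5.55% of all 14207 windows. It was the only member window with one. GC boxes, present in 59.9% of all windows, numbered 1 in ITGA5, 2 in ITGB8, 4 in ITGA2, 3 in ITGB1, 2 in ITGB5 and 1 in ITGA6, where the match lay after the start (34 to 39) and so is not printed. ITGA6 also held the only TATA match, from -32 to -27 on the strand opposite to the gene's own, and 9.07% of windows hold one on either strand. ITGB5 held 1 C/EBP-ATF and 1 ETS match (2.52% and 14.5% of windows), CRE (2.63% of windows) was in none of the 8, and the windows of ITGAV and ITGA4 held no match to any of the 6. A GC box was thus in all 4 windows of lower subunits and in 2 of the 4 windows of subunits that were not called. Since 59.9% of all windows hold one and only 1 window per gene was searched, nothing is read from this split. The windows ran from 49.7% G and C in ITGB5 to 78.3% in ITGB1. These letters are a description of the windows and not of any factor that binds there.

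Of the 16 other subunits, 15 had a probe set of their own. None was called lower and 2 were called higher. ITGA8, a partner of ITGB1 known from kidney and smooth muscle, read 3.32, 3.32 and 2.94 in control and 3.74, 3.72 and 3.74 in siFAH arrays. Its siFAH arrays were all higher (log2 fold change 0.53, SE 0.10, adjusted p = 0.0109 by limma). ITGA11, a collagen-binding subunit of fibroblasts, read 4.17, 4.40 and 4.31 in control and 4.67, 4.68 and 4.85 in siFAH arrays. These groups did not overlap either (0.44, SE 0.08, adjusted p = 0.0109 by limma). Both were dim, at percentiles 14.3 and 31.0 of mean signal, and no detection call was analysed here. Among the 9186 genes dimmer than the median gene 2.11% were called higher, with a median of 0.04. Over all genes, 13.4% had siFAH arrays that were all above the control arrays.

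The remaining 13 ranged from -0.18 (ITGB4, a partner of ITGA6) to 0.23 (ITGAE). At an unadjusted p under 0.05 they included 1 lower (ITGB4) and 1 higher (ITGAE), and SAM called none of them. The 8 subunits of blood cells and platelets, such as ITGB2 and ITGA2B, were all dimmer than the median gene and none was called. ITGA9, a receptor subunit for tenascin and osteopontin, was the one other subunit brighter than the median gene. It read 6.78, 6.71 and 6.71 in control and 7.07, 7.05 and 6.67 in siFAH arrays. Its siFAH replicate 3 lay below the control arrays and the other siFAH arrays above them (0.20, adjusted p = 0.246 by limma). Without that array the fold change was 0.33 and the adjusted p was 0.0475. Without control replicate 1, ITGAM was called higher (0.34, adjusted p = 0.0485 by limma).

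**Figure D3:**
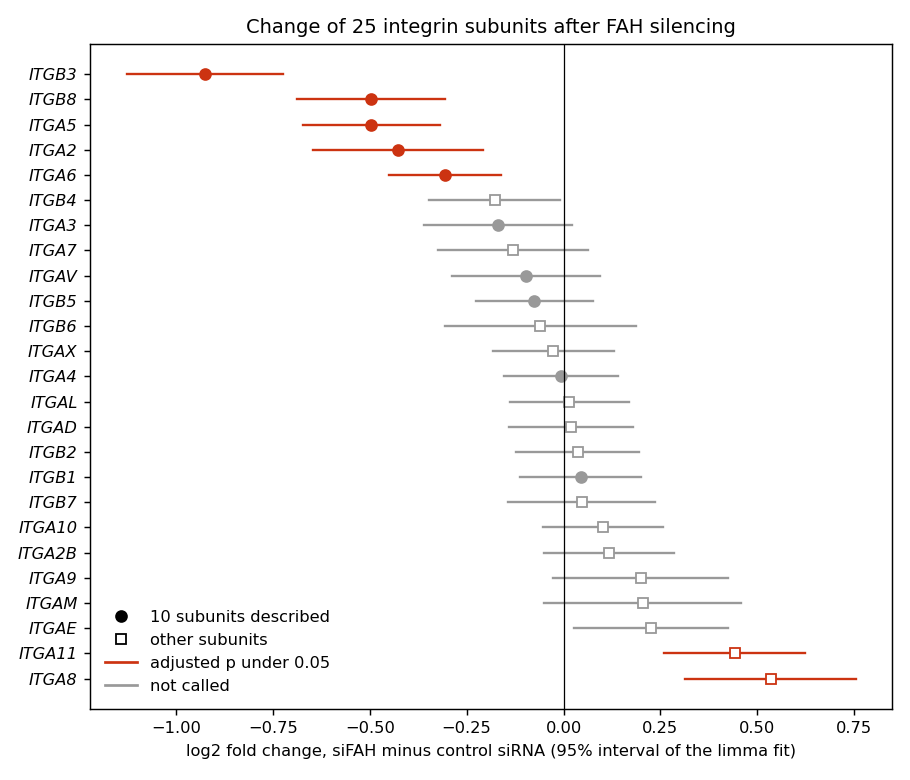
Horizontal axis, change in log2 signal from control siRNA to siFAH with the 95% interval of the limma fit, for 25 integrin subunits, ordered by value. Filled circles are the 10 subunits described and open squares the other 15, and red marks an adjusted p under 0.05. The 5 called lower are all among the 10, and ITGA8 and ITGA11 are called higher.

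Genes that work with integrins were taken from 6 lists, of which 93 genes were tested. In all, 16 of the 93 were lower and 2 higher, beside 6.38% and 3.48% of all genes. Among the genes at least as bright as the dimmest of the 10 subunits, 15.2% were lower. The 93 also included dimmer genes, down to percentile 7.59 of mean signal, so that share is not for a like set. Without control replicate 2 or without siFAH replicate 3 the 16 became 10, and without any 1 of the arrays the 2 became 1. Their lists were made with results of these arrays known.

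Among 15 ligands of the kind that ITGAV and ITGA5 receptors bind, 3 were lower and 1 higher, with a list median of -0.05. TNC, the matrix protein tenascin, was lower by 0.73 on the log2 scale (SE 0.08, adjusted p = 0.00144 by limma) and THBS1, thrombospondin, by 0.65 (adjusted p = 0.00193). CCN2, a matricellular protein, was lower by 0.33 (adjusted p = 0.0222), a call lost without control replicate 2, control replicate 3 or siFAH replicate 3 (up to 0.0893). FN1 went the other way. Fibronectin, the ligand of the ITGA5 and ITGB1 pair, read 7.38, 7.48 and 7.69 in control and 8.19, 8.15 and 7.97 in siFAH arrays. All siFAH arrays exceeded all control arrays, and the fold change was 0.59 (SE 0.09, adjusted p = 0.00528 by limma), opposite in sign to that of ITGA5. VTN, the ligand vitronectin, had a fold change of -0.08 and SPP1, osteopontin, of 0.13, and neither was called.

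Of 9 laminin chains, ligands of the ITGA3 and ITGA6 receptors, LAMB1 (-0.33), LAMA4 (-0.31) and LAMC1 (-0.28) were lower, and none was higher (none by SAM or at an unadjusted p under 0.05). These calls were close to the limit. LAMC1 (adjusted p = 0.0484 by limma) was lost without any 1 array, LAMA4 (0.0443) without any 1 except control replicate 1, and LAMB1 (0.0248) without control replicate 2, control replicate 3, siFAH replicate 2 or siFAH replicate 3. LAMA4 and LAMC1 were also lost under quantile scaling (0.081 and 0.0601) and cyclic loess (0.0922 and 0.0944), which left LAMB1 as the laminin chain called. Of 10 collagen and VCAM-type ligands, which ITGA2 and ITGA4 receptors bind, COL4A2, a basement membrane collagen, was lower by 0.26 (adjusted p = 0.0367 by limma). That call was lost without any 1 array except control replicate 1, under quantile scaling (0.085) and cyclic loess (0.119), and at the study's limit of 1.2-fold. The list median was 0.10.

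Of 31 linkers and kinases at the cytoplasmic tails, 5 were lower and 1 higher, with a list median of -0.04. The lower genes were ILK, a pseudokinase that binds beta tails (-0.53, adjusted p = 0.0101 by limma), the actin crosslinkers ACTN4 (-0.52, 0.00678) and ACTN1 (-0.45, 0.0119), the Src-family kinase FYN (-0.46, 0.0103) and VCL, vinculin (-0.35, 0.0155). The first 4 were called with each array left out, and VCL was lost without control replicate 2, siFAH replicate 2 or siFAH replicate 3 (up to 0.0543). TNS3, a tensin, was higher by 0.26 (adjusted p = 0.0291), a call lost without any 1 array, under median centring (0.0849) and at the study's limit of 1.2-fold. TLN1, the talin that activates integrins, had a fold change of -0.33 at an adjusted p of 0.0529 and was not called. PTK2, which encodes FAK, was at -0.16 (adjusted p = 0.207 by limma).

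Of 14 membrane partners, 3 were lower and none was higher (none by SAM or at an unadjusted p under 0.05). They were SLC3A2, the CD98 heavy chain that binds beta tails (-0.62, adjusted p = 0.00331 by limma), the adhesion molecule MCAM (-0.57, 0.00642) and the tetraspanin CD9 (-0.55, 0.00251), and each was called with any array left out. Of 14 trafficking genes, DAB2, an endocytic adaptor, was lower (-0.41, adjusted p = 0.0114 by limma), and none was higher (none by SAM or at an unadjusted p under 0.05). The other genes of these 2 lists did not pass the test. Their list medians were -0.05 and -0.02.

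**Figure D4:**
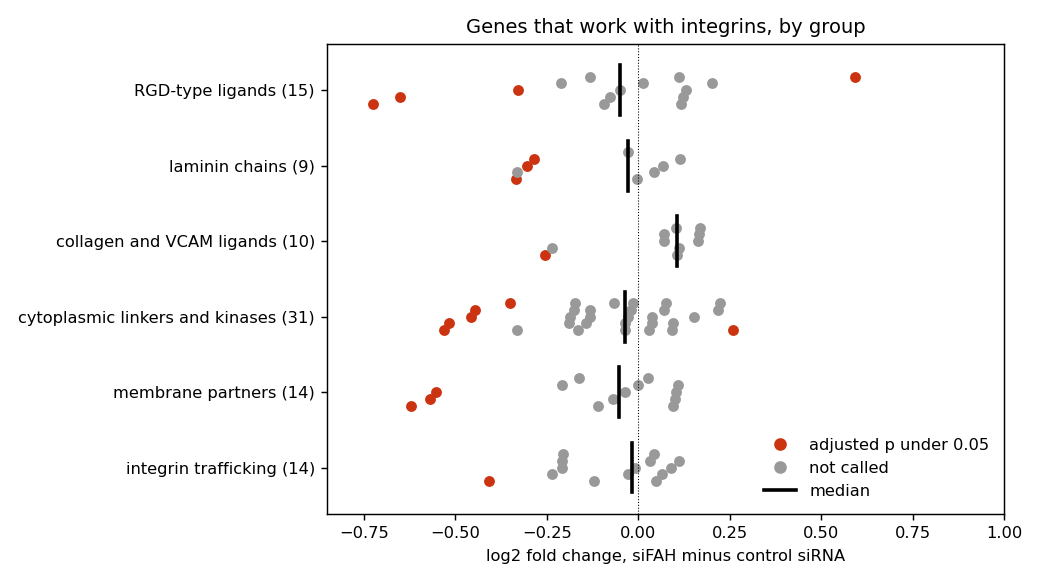
Horizontal axis, change in log2 signal from control siRNA to siFAH for 93 genes that work with integrins, in 6 lists with the number tested. Each point is a gene, red where the adjusted p by limma is under 0.05, and black bars are list medians, which lie between -0.05 and 0.10. The red point far to the right is FN1 and the leftmost is TNC.

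The genes whose pattern over the 6 arrays lay closest to that of ITGB3 were named by the root mean square distance between log2 profiles, each first set to 0 at its control mean. They were SERPINA3, a protease inhibitor (distance 0.0676), the ubiquitin ligase TRIM2 (0.0829), HAPLN1, a link protein of the hyaluronan matrix (0.0894), the cytokine IL24 (0.0953) and CTH, which makes cysteine from cystathionine (0.101). Their own fold changes ran from -0.97 (TRIM2) to -0.83 (HAPLN1), around that of ITGB3. No other integrin subunit was among these 5, and none could be, since the next lowest fold change was that of ITGB8 (-0.50). The list was drawn from the fold change that ranks ITGB3 itself, so likeness here is a description over 6 arrays. With the study's limits of at least 1.2-fold and a p under 0.05, applied here to limma's unadjusted p without the SAM step the study names, 7.83% of all genes were lower and 4.74% higher, and the same 5 of the 10 integrin subunits were lower.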

How the data were processed

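Signals of 6 Affymetrix Human Gene 1.0 ST arrays were analysed, 3 for control siRNA and 3 for siFAH, all at 72 h and grouped by their labels. The values are log2 signals as deposited, which the authors made by RMA (version not given in the sources used here) with global scaling as the normalization. Such summaries can understate large changes, and precision is limited by the small number of arrays. Probe sets with exactly 1 symbol in the platform annotation were used (19291 of 28829; 1735 had several symbols and 7803 none listed), and 19260 symbols were matched by gene ID to RefSeq with 0 changed. Where probe sets shared a symbol, the brightest by mean over the 6 arrays stood for the gene. The comparison, siFAH minus control siRNA, was fitted across all 18372 genes in R 4.3.3 by limma 3.58.1, functions lmFit and eBayes (4 residual and 6.52 prior degrees of freedom), and Benjamini-Hochberg adjusted p values under 0.05 were called. All p values are two-sided. Fits were tested on simulated data.

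The members and gene lists were chosen with earlier results of these data known. Named were FAH, the 10 members, other integrin subunits that were called, up to 6 called genes per further list by size of change, and the 5 genes nearest to ITGB3. TLN1, PTK2, VTN, SPP1, ITGB4, ITGA9, ITGAE, ITGAM and the markers were added to the text after their values were seen. Partner differences were tested by exact permutation. Alternatives were quantile, median-centred and cyclic loess scaling, a filter on genes dimmer than the median, SAM, the methods' t-test, the study's limits, array weights, a robust eBayes with trend, averaging the probe sets of a gene, a block for the replicate number, and leaving out each array. The t-test p values were Benjamini-Hochberg adjusted over all genes here, whereas the study states a limit of p under 0.05. Promoters came from RefSeq (GRCh38.p14). Python 3.11.15 with matplotlib 3.10.9 drew the figures.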

Additional observations from a re-analysis of the deposited data

How the results depend on the processing

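ITGB3, ITGA5 and ITGB8 were called lower under 16 of 17 alternatives, all but the methods' t-test after Benjamini-Hochberg adjustment (adjusted p of 0.0966, 0.118 and 0.13). Not all alternatives could differ for these genes. Averaging probe sets used the same values, since each member had 1 probe set. The study's limits, set on the unadjusted p of the main fit, passed any called gene with at least a 1.2-fold change. ITGA2 and ITGA6 were called under 11 of 17 each. Both partner changes kept their sign under quantile scaling and cyclic loess and with each array left out (-0.88 to -0.79 and -0.60 to -0.48). The count of the 10 subunits called lower was 5, with 4 under cyclic loess and under the replicate block (ITGA6 lost, adjusted p of 0.0553 and 0.0622), 0 under the methods' t-test and 3 to 5 with each array left out. Of the 5 uncalled subunits ITGAV and ITGA3 kept their sign, and the others changed it near 0: ITGB1 was -0.0102 under median centring and -0.00517 to 0.0799 with each array left out (negative without siFAH replicate 2), ITGA4 was 0.0540 under quantile scaling, 0.0756 under cyclic loess, 0.0322 with array weights and -0.0366 to 0.0262 with each array left out (positive without control replicate 3), and ITGB5 was 0.0131 under cyclic loess.

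Of the other subunits, 1 was lower with array weights (ITGB4), and the 2 higher became 0 without dim genes, since both are dim, 0 under the methods' t-test and 2 to 3 with each array left out. Of the genes that work with integrins, the 16 lower became 25 without dim genes, 0 under the methods' t-test, 11 under the replicate block and 10 to 18 with each array left out. The 2 higher became 4 without dim genes, with array weights and under SAM, and 1 under median centring, the methods' t-test, the study's limits, the replicate block and with each array left out. Over all genes, the 1172 lower became 1887 under SAM, 8 under the methods' t-test and 390 to 1192 with each array left out, the lowest counts being 472 without control replicate 2, 438 without control replicate 3, 440 without siFAH replicate 2 and 390 without siFAH replicate 3. The 639 higher became 416 under median centring, 1170 with array weights, 1142 under SAM, 6 under the methods' t-test and 267 to 653 with each array left out. Fewer arrays leave fewer degrees of freedom, and the cause of the other shifts was not tested.

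With the replicate number as a block, 462 genes were lower and 299 higher, and LAMB1, LAMA4, LAMC1, COL4A2, CCN2 and TNS3 were not called (adjusted p of 0.0579 to 0.112). Arrays of the same number deviated from their group means with correlations of -0.16, -0.09 and -0.27, and arrays of different numbers with -0.09 to 0.24. No pairing by number was seen. Deviations from means of 3 arrays cannot decide whether the numbers pair the arrays, since they sum to 0 within each group.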

Other observations

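ITGA1, another collagen-binding subunit, had no probe set of its own. The probe set it shares with PELO read 7.12, 7.09 and 7.28 in control and 7.20, 7.24 and 7.17 in siFAH arrays, with overlapping groups, and it was in no test.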
